A study of Homo sapiens with 6 samples.

Results

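The genes described here are 46 genes of autophagy and the lysosome, selected by symbol among the 42656 genes of one RNA sequencing count table. All 46 were in the table, and all 46 passed the filter on low counts that left 15679 genes for testing. They comprise 3 transcription factors of the TFEB family, 26 genes of the autophagy machinery and its cargo receptors, and 17 genes of late endosomes and lysosomes.

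Autophagy encloses cytoplasm, protein aggregates or worn organelles in a double membrane, the autophagosome, which then fuses with the lysosome, where acid hydrolases digest the contents. A kinase complex built on ULK1 starts the process, a lipid kinase marks the site, ATG9A vesicles and ATG2 lipid transfer proteins feed the growing membrane, and small ubiquitin-like ATG8 proteins coat it and bind cargo receptors such as SQSTM1 (p62). TFEB, TFE3 and MITF are related transcription factors that bind E-box sequences in promoters of lysosomal and autophagy genes, and the kinase mTORC1 holds TFEB and TFE3 in the cytoplasm of fed cells. These values are mRNA levels and do not measure autophagic flux, lysosomal acidity or protein.

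The cells were TOV21G, an established line of ovarian clear cell carcinoma, in 2 arms of 3 libraries. Both arms received a lentiviral short hairpin RNA at a multiplicity of infection of 50 and were harvested on day 3. The control arm (shCtrl) carried a scrambled hairpin and the knockdown arm (shMEX3A) a hairpin against MEX3A, which encodes an RNA-binding protein with a ubiquitin ligase domain. Each arm rests on a single hairpin, so the effect of losing MEX3A and any other effect of that hairpin cannot be told apart. The labels do not say whether the 3 replicates were separate cultures, and the p-values then measure the spread between these libraries, which may be technical.

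MEX3A itself was at 68.8, 70.7 and 67.6 CPM (counts scaled to a common library total) in shCtrl and at 19.6, 21.0 and 22.2 in shMEX3A, 3.31-fold lower (log2 fold change -1.72, SE 0.046, adjusted p = 1.52e-28 by edgeR's quasi-likelihood test with Benjamini-Hochberg adjustment). Libraries held 34662635 to 48228216 counts, of which the 46 genes took 0.908% to 0.933% in shCtrl and 0.935% to 0.945% in shMEX3A. Of the markers of clear cell carcinoma, PAX8 stood at 192 ± 4.11 CPM (SD, n = 3) in shCtrl and 294 ± 5.20 in shMEX3A, while NAPSA was under 1 CPM in every library. The summed level of 9 leukocyte markers ran from 0.778 to 1.22 CPM in shCtrl and from 2.20 to 2.46 in shMEX3A. ITGAM was at 0.659 ± 0.209 and 2.01 ± 0.141 CPM and CD14 at 0.283 ± 0.0990 and 0.165 ± 0.0668, with CD163, TYROBP, AIF1, CD3E and MS4A1 at 0 in all 6 libraries. The sums of 6 fibroblast markers were 5.41 to 5.92 and 8.88 to 11.0 CPM, of which DCN made up 4.86 ± 0.193 and 9.07 ± 0.861, while the means of PDGFRA and PDGFRB were lower in shMEX3A and under 1 CPM. The part of these cell types in the results below was not tested. In bulk RNA, fewer cells of a kind and less RNA per cell cannot be told apart.

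Because the TFEB family reads the letters CACGTG, the core of the E-box, and its extended form TCACGTGA, RefSeq promoters (GRCh38.p14, from 250 bases before to 50 bases after the gene start) were searched for both. Each motif reads the same on both strands, and TCACGTGA contains CACGTG. A promoter entry was matched for 39 of the 46 genes, and 9 of the 39 (23.1%) held CACGTG, against 7.43% of all 27305 promoters of that length. The longer TCACGTGA was in 6 of the 39 (15.4%), against 1.04% of all. The 9 genes were ATG14, ATG3, TBK1, LAMP1, MCOLN1, ATP6V0D1, CTSA, CTSD and GAA. CACGTG occurred more than once in LAMP1, MCOLN1, GAA, CTSA and ATG3. The stretches of LAMP1, MCOLN1 and GAA are printed because they hold repeated copies and lie outside annotated exons, with capitals marking each CACGTG. They are the LAMP1 stretch at chr13:113297027-113297236, the MCOLN1 stretch at chr19:7522563-7522623 and the GAA stretch at chr17:80101485-80101555, each on the plus strand of GRCh38.p14.
LAMP1: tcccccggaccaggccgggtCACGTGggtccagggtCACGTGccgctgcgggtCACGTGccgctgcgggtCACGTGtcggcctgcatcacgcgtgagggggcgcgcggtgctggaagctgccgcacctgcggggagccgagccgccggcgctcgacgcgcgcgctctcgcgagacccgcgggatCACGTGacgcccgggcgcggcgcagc
MCOLN1: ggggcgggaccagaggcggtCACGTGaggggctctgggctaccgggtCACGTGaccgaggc
GAA: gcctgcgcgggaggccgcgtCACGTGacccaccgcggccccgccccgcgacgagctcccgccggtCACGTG

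The LAMP1 stretch holds 5 copies, which begin 192 to 28 bases before the gene start. A further LAMP1 copy begins 1 base before the gene start, runs into an annotated exon and is not printed. The 2 copies of MCOLN1 begin 41 and 14 bases before it, and the 2 copies of GAA 76 and 31 bases before it. A match to these letters is a description of the sequence and does not show that a factor binds there.

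Of the 46 genes, 25 were called higher and 11 lower in shMEX3A at an adjusted p under 0.05, and 10 were not called. Most genes of these cells were called: 69.7% of all genes tested, with 34% higher and 35.6% lower, and 81.3% of the 5991 genes whose mean level lay between the 10th and 90th percentile of the 46. The 78.3% called among the 46 is near those shares. The 3 values of each arm did not overlap in 36 of the 46, against 72.3% of all genes. At 1.5-fold or more, 5 of the 46 were called higher (background 14.8%) and 2 lower (background 13.2%). The 5 were ULK1, ATG9A, ATG2A, TFE3 and ATP6V0D1, and the 2 were MITF and ATG12. The median log2 fold change of the 46 was 0.10 (range -1.15 to 1.93) and that of all genes tested -0.01, while the median size regardless of direction was 0.23 for the 46 and 0.35 for all.

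**Figure D1:**
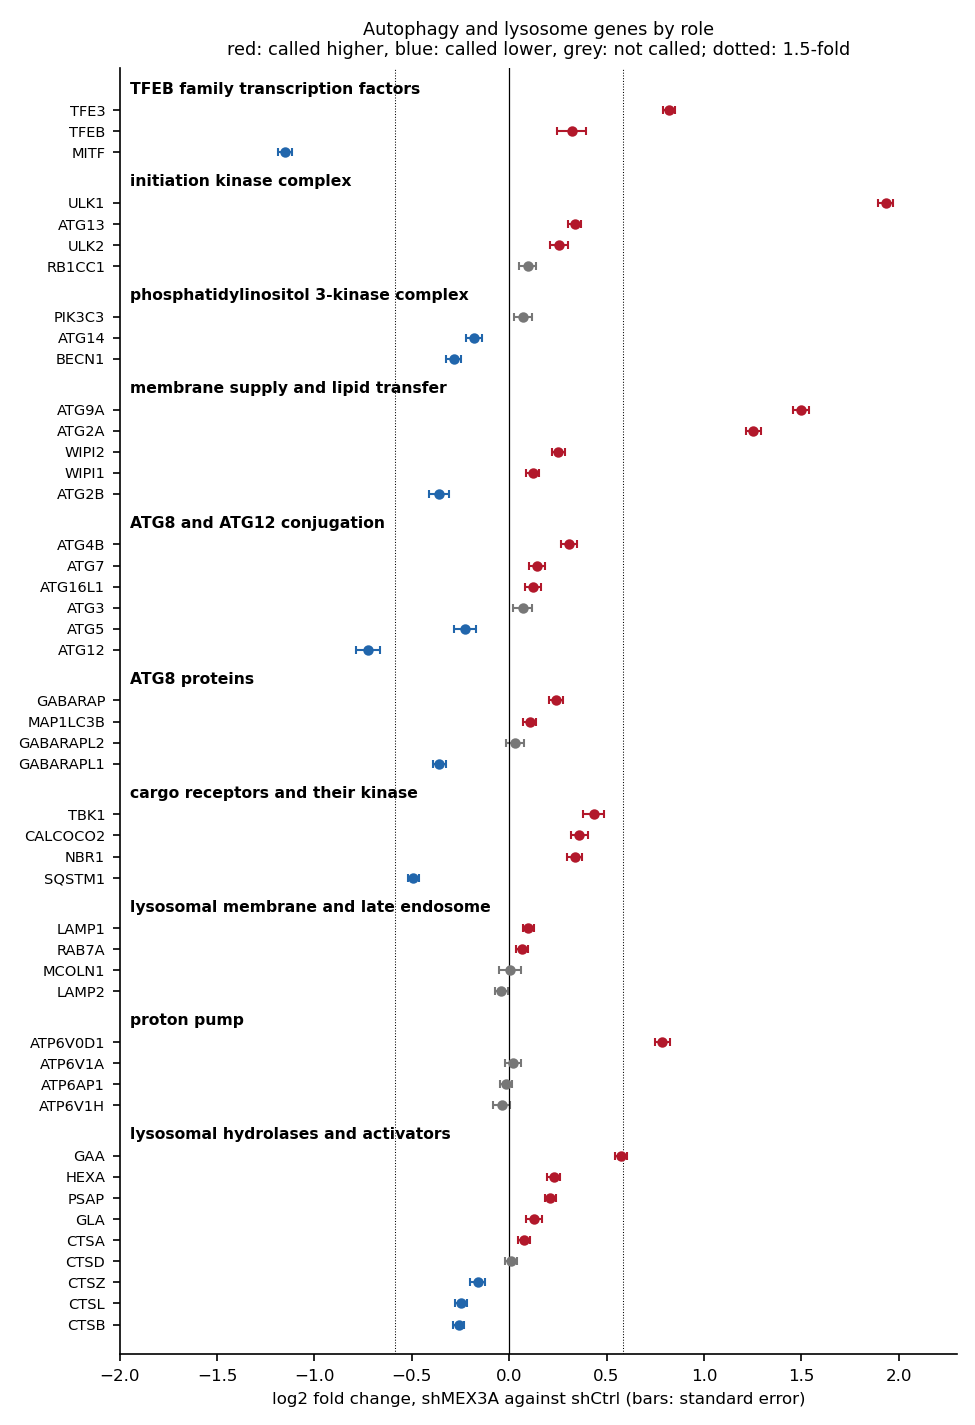
Log2 fold change (shMEX3A against shCtrl, horizontal axis) of each of the 46 genes, grouped by role, with bars for the standard error, red for called higher, blue for called lower, grey for not called and dotted lines at 1.5-fold. ULK1, ATG9A and ATG2A lie above 1, MITF lies below -1, and among the lysosomal genes ATP6V0D1 alone passes the 1.5-fold line.

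Counts and sizes are given separately for the autophagy machinery and the lysosome. Of the 26 autophagy genes, 15 were higher and 7 lower, with a median size of 0.27 on the log2 scale. Of the 17 late endosome and lysosome genes, 8 were higher, 3 lower and 6 not called, with a median size of 0.10. Of all genes tested, 34% were called higher and 35.6% lower, with a median size of 0.35. In the further lists described below, the median size was 0.36 for hydrolases, 0.36 for pump subunits and 0.34 for membrane and transport genes. It was 0.37 for autophagy core genes, 0.27 for receptor and fusion genes and 0.22 for mTORC1 control. The small size of the 17 genes was thus not seen in the further lysosomal lists. This is a description of lists and the difference between the 26 and the 17 genes was not tested.

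**Figure D2:**
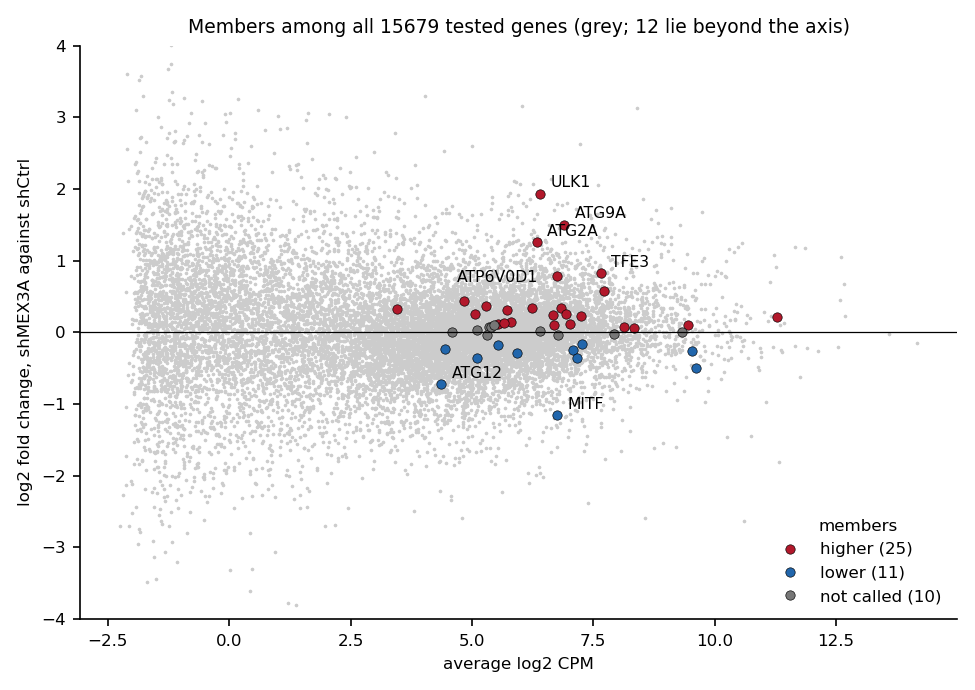
Log2 fold change (shMEX3A against shCtrl) against average log2 CPM for all 15679 tested genes in grey, 12 of them beyond the axis, with the 46 genes over them in red (higher), blue (lower) or dark grey (not called). ULK1, at 1.93, stands highest among the 46 and MITF, at -1.15, lowest, and both lie within the spread of other genes.

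GC content moved with the fold changes. Over the 46 genes, the GC content of the transcript and the log2 fold change had a Spearman rho of 0.40 and a Pearson r of 0.51, and over 14480 tested genes rho was 0.19. These are descriptions across genes, which share the libraries and are not independent replicates. When GC content and transcript length were fitted as offsets in each library, rho over the 46 was 0.15, 28 genes were called higher and 13 lower, and all 7 genes past 1.5-fold kept that size: ULK1 1.68, ATG9A 1.29, ATG2A 0.99, TFE3 0.65, ATP6V0D1 0.64, MITF -1.05 and ATG12 -0.60 on the log2 scale. TBK1 (0.63) and SQSTM1 (-0.61) then also passed 1.5-fold. Values under these offsets are given below for genes whose call or direction they changed or whose value they moved by more than 1.5 times, and the part of GC content in the fold changes was not otherwise tested.

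**Figure D3:**
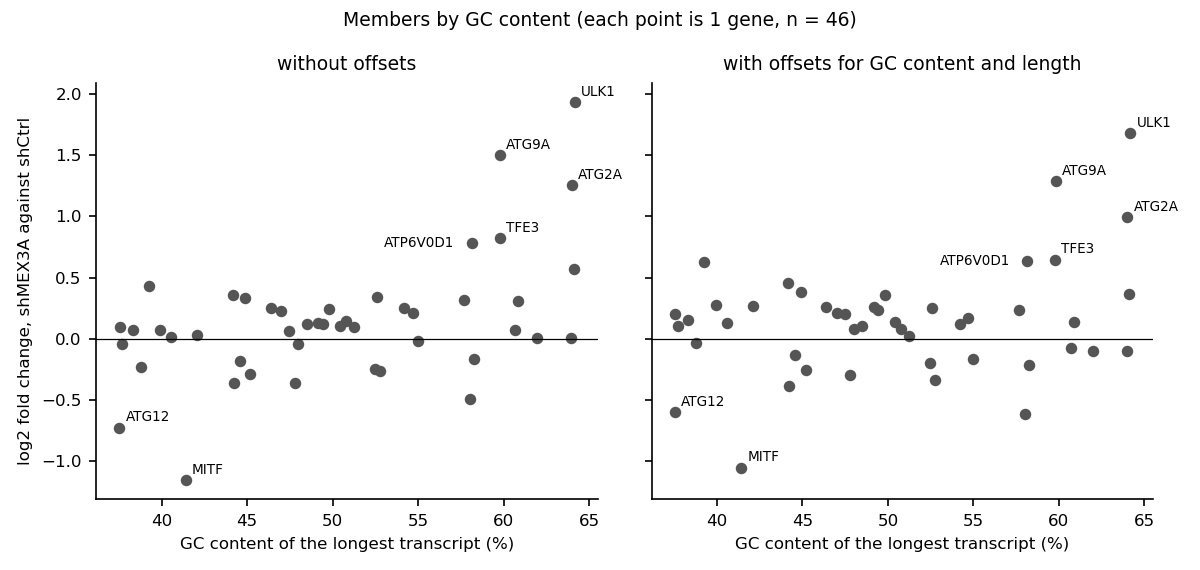
GC content of the longest transcript (percent) against log2 fold change (shMEX3A against shCtrl), 1 point per gene for the 46 genes, without offsets on the left and with GC and length offsets on the right. ULK1 and ATG2A, at 64.2% and 64.0% GC, are among the highest in both panels, and MITF and ATG12, at 41.4% and 37.5% GC, are among the lowest.

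The 3 transcription factors went in different directions. TFE3 (GRCh38 chrX:49028726-49043486, minus strand) was at 145, 149 and 144 CPM in shCtrl and at 259, 258 and 256 in shMEX3A. It rose 1.77-fold (log2 fold change 0.82, SE 0.031, adjusted p = 5.02e-24). MITF (chr3:69739435-69968337, plus strand), best known as the regulator of the melanocyte lineage, was at 147, 154 and 145 CPM in shCtrl and at 66.6, 67.5 and 66.3 in shMEX3A, and fell 2.22-fold (log2 fold change -1.15, SE 0.035, adjusted p = 7.73e-27). In both genes every shMEX3A library lay apart from every shCtrl library.

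TFEB, which gave the family its name, was the least abundant of the family, at 9.79, 9.53 and 9.80 CPM in shCtrl and 11.5, 12.0 and 13.0 in shMEX3A. It rose 1.25-fold (log2 fold change 0.32, SE 0.074, adjusted p = 0.000234). Per kilobase of exon, the level in shCtrl was 42.7 for TFE3, 24.3 for MITF and 2.17 for TFEB, in CPM per kilobase, and in shMEX3A it was 75.4, 10.9 and 2.72. The ratio of TFE3 to MITF per kilobase, which no scaling between libraries touches, was 1.76, 1.73 and 1.78 in shCtrl and 6.95, 6.83 and 6.90 in shMEX3A. With 3 libraries against 3, the smallest two-sided p that an exact permutation test can give is 0.1, and this ratio gave 0.1. TFE3 rose and MITF fell with arms apart in both, so the ratio had to separate the arms and this p adds nothing.

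ULK1, the kinase that receives signals from mTORC1 and AMPK and starts autophagosome formation, had the largest change of the 46 genes. ULK1 (chr12:131894651-131923167, plus strand) was at 34.5, 36.0 and 35.3 CPM in shCtrl and at 133, 132 and 139.6 in shMEX3A. It rose 3.82-fold (log2 fold change 1.93, SE 0.039, adjusted p = 1.38e-32), with no overlap between arms. Its relative ULK2 was at 30.8, 29.8 and 30.2 CPM in shCtrl and 36.2, 36.6 and 35.5 in shMEX3A, and rose 1.19-fold (log2 fold change 0.26, SE 0.047, adjusted p = 8.33e-06).

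The ratio of ULK1 to ULK2 per kilobase went from 1.38 ± 0.0541 in shCtrl to 4.40 ± 0.208 in shMEX3A (SD, n = 3, exact permutation p = 0.1, the smallest possible). The arms of ULK1 lay much further apart than those of ULK2, so the ratio had to separate them and this p adds nothing. ATG13, the regulatory partner that ULK1 phosphorylates, was at 100.3, 101 and 103 CPM in shCtrl and 131, 126 and 127 in shMEX3A, and rose 1.26-fold (log2 fold change 0.34, SE 0.033, adjusted p = 1.85e-11). RB1CC1 (FIP200), the scaffold of the complex, was at 42.9, 39.3 and 44.3 CPM against 45.8, 45.9 and 43.5. Its arms overlapped and it was not called (log2 fold change 0.095, SE 0.045, adjusted p = 0.0601), while under the GC and length offsets it was called at 0.20. RB1CC1 was also called with DESeq2 size factors (adjusted p = 0.0372) and with the filter of 1 CPM (0.0257). Leaving out shCtrl replicate 3 or shMEX3A replicate 3 also brought it under the threshold, with adjusted p of 0.0213 and 0.0414.

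**Figure D4:**
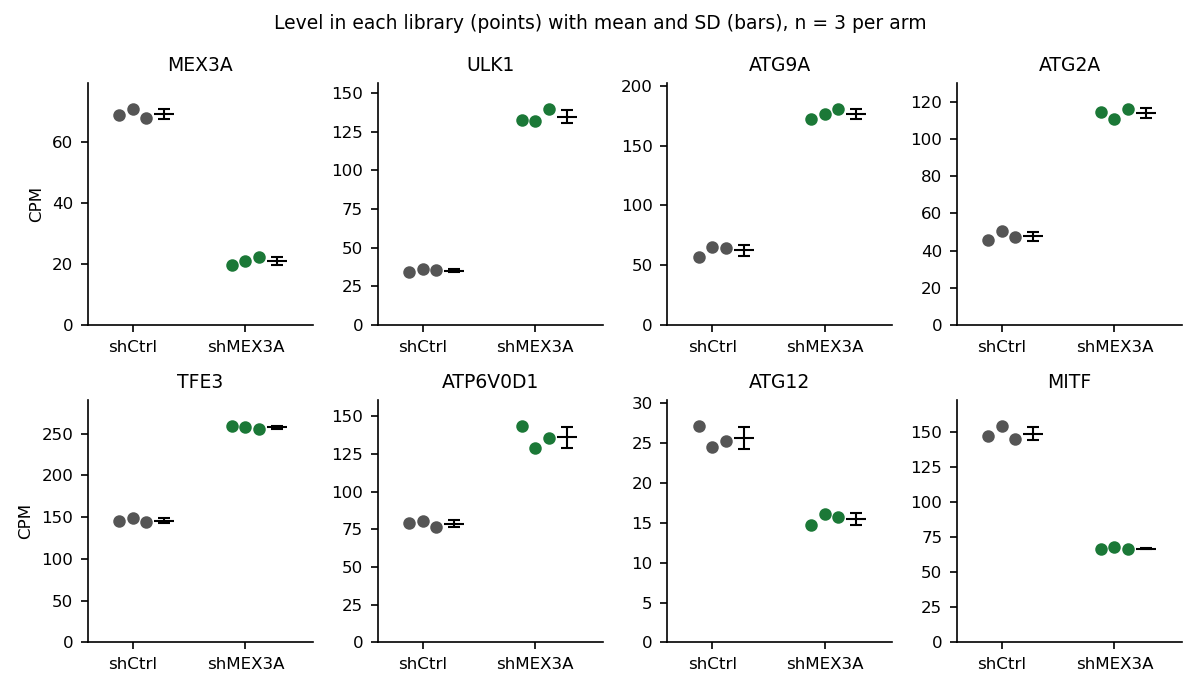
Level in each of the 6 libraries (CPM, linear axes from 0, 1 panel per gene) for MEX3A and the 7 genes past 1.5-fold, with points for libraries (grey shCtrl, green shMEX3A) and bars for mean and SD (n = 3). ULK1 lies at 34.5 to 36.0 CPM in shCtrl and 132 to 139.6 in shMEX3A, and MITF at 145 to 154 and 66.3 to 67.5. In no panel do the arms overlap, as in 72.3% of all genes tested, and the 7 genes were picked for the size of their change.

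The lipid kinase complex that makes phosphatidylinositol 3-phosphate on the forming membrane did not rise with the initiation complex. BECN1, its Beclin 1 subunit, was at 65.4, 67.8 and 66.8 CPM in shCtrl and 53.4, 53.7 and 57.3 in shMEX3A, and fell 1.22-fold (log2 fold change -0.29, SE 0.039, adjusted p = 3.4e-08). The exons of BECN1 share 23.5% of their bases with exons of another gene, and the strand setting of the counting is not given in the sources used here. ATG14, the subunit that directs the complex to autophagy, fell by 0.18 on the log2 scale (SE 0.041), from 49.1 ± 0.786 to 43.3 ± 1.09 CPM. PIK3C3, the catalytic subunit VPS34, was not called (0.069, SE 0.047), and under the offsets it was called at 0.16.

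Genes that supply membrane included the next largest rises. ATG9A (chr2:219219380-219229717, minus strand), a lipid scramblase carried on vesicles to the autophagosome, was at 57.3, 65.5 and 64.4 CPM in shCtrl and at 172, 176 and 181 in shMEX3A. It rose 2.83-fold (log2 fold change 1.5, SE 0.041, adjusted p = 2.06e-22), and exons of another gene cover 43.5% of its exon bases. ATG2A (chr11:64894546-64917248, minus strand), which transfers lipids from the endoplasmic reticulum, was at 45.6, 50.4 and 47.3 CPM in shCtrl and at 114, 111 and 116 in shMEX3A, a rise of 2.38-fold (log2 fold change 1.25, SE 0.039, adjusted p = 1.57e-26). None of the exon bases of ATG2A, ULK1, TFE3, MITF, ATP6V0D1 or GAA are shared in this way.

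ATG2B, a paralog of ATG2A with the same lipid transfer role, went the other way. It was at 36.6, 38.4 and 42.0 CPM in shCtrl and 31.7, 30.0 and 29.2 in shMEX3A, and fell 1.28-fold (log2 fold change -0.36, SE 0.051, adjusted p = 8.94e-08). The ratio of ATG2A to ATG2B per kilobase went from 2.65 ± 0.201 to 8.10 ± 0.412 (SD, n = 3; exact permutation p = 0.1, the smallest possible). Here too the arms of both genes lay apart in opposite directions, so this p was fixed by the values of each gene. WIPI1 and WIPI2, which bind phosphatidylinositol 3-phosphate and recruit the conjugation machinery, rose by 0.12 (SE 0.034) and 0.25 (SE 0.032) on the log2 scale, and under the offsets the values were 0.24 and 0.12. Another gene covers 28.5% of the exon bases of WIPI1.

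The conjugation genes, which attach ATG8 proteins to lipid and ATG12 to ATG5, moved in both directions. ATG12 (chr5:115828200-115841858, minus strand), a ubiquitin-like protein, was at 27.1, 24.6 and 25.2 CPM in shCtrl and at 14.7, 16.1 and 15.8 in shMEX3A. It fell 1.65-fold (log2 fold change -0.72, SE 0.059, adjusted p = 1.29e-13), with no overlap between arms. ATG4B, the protease that trims ATG8 proteins, was at 45.5, 48.3 and 48.3 CPM in shCtrl and 56.2, 59.5 and 60.2 in shMEX3A and rose 1.24-fold (0.31, SE 0.041, adjusted p = 2.3e-08, with 0.13 under the offsets).

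The remaining conjugation genes changed less. ATG5, the partner of ATG12, fell by 0.23 on the log2 scale (SE 0.056), and under the offsets it was at -0.03 with an adjusted p of 0.628. ATG7, the activating enzyme, rose by 0.14 (SE 0.041), and under the offsets it was at 0.078 with an adjusted p of 0.0634. Another gene covers 32.2% of its exon bases. ATG16L1, which sets where lipidation occurs, rose by 0.12 (SE 0.042, adjusted p = 0.0101), and without shMEX3A replicate 1 the adjusted p was 0.0808. ATG3, the conjugating enzyme, was not called (0.069, SE 0.048), and under the offsets it was called at 0.28.

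Among the ATG8 proteins, which line the autophagosome and bind receptors, 2 rose, 1 fell and 1 was not called. The shares over all genes tested were 34% higher and 35.6% lower. GABARAPL1 was at 159.5, 159.5 and 165 CPM in shCtrl and at 127, 128 and 123 in shMEX3A, and fell 1.28-fold (log2 fold change -0.36, SE 0.032, adjusted p = 1.72e-12). GABARAP was at 92.0, 92.9 and 95.2 CPM in shCtrl and 111, 108 and 112 in shMEX3A, and rose 1.18-fold (0.24, SE 0.034, adjusted p = 9e-08), and other genes cover 55.7% of its exon bases. MAP1LC3B, the source of the common marker LC3B, rose from 100.1 ± 2.74 to 108 ± 2.43 CPM (0.10, SE 0.035, adjusted p = 0.0077). Without shCtrl replicate 2 the adjusted p of MAP1LC3B was 0.0582, and without shMEX3A replicate 1 it was 0.0507.

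GABARAPL2 was at 33.9 ± 1.17 and 34.6 ± 1.07 CPM (0.031, SE 0.047, not called), and under the offsets it was called at 0.27. Per kilobase, GABARAPL1 made up 35.2% ± 0.160 of the 4 ATG8 transcripts in shCtrl and 27.7% ± 0.485 in shMEX3A, and GABARAP 26.9% ± 0.274 and 32.1% ± 0.750. By this measure GABARAPL1 was the most abundant of the 4 in shCtrl and GABARAP in shMEX3A. In CPM GABARAPL1 was the highest of the 4 in both arms, at 161 and 126. The order depends on the length used: GABARAP has 2266 bases in its exon union and 1634 in its longest transcript, and GABARAPL1 2989 and 3214. The ratio of GABARAPL1 to GABARAP per kilobase was 1.32, 1.30 and 1.31 in shCtrl and 0.866, 0.899 and 0.829 in shMEX3A (exact permutation p = 0.1, the smallest possible). The arms of both genes lay apart in opposite directions, so the ratio had to separate them and this p adds nothing. The near-identical copies MAP1LC3B2 and GABARAPL3 held at most 9 and 2 counts in a library.

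The receptors divided between SQSTM1 and the others. SQSTM1 (chr5:179806398-179838078, plus strand), the p62 receptor that is itself digested with its cargo, was at 919, 934 and 913 CPM in shCtrl and at 645, 664 and 657 in shMEX3A. It fell 1.41-fold (log2 fold change -0.49, SE 0.029, adjusted p = 6.33e-18), and another gene covers 39.8% of its exon bases. NBR1, a receptor that works with p62, rose from 67.0 ± 3.07 to 84.6 ± 3.01 CPM (0.34, SE 0.039). CALCOCO2 (NDP52), a receptor for bacteria and mitochondria, rose from 34.2 ± 1.21 to 43.9 ± 1.34 CPM (0.36, SE 0.045).

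TBK1, the kinase that phosphorylates receptors to raise their affinity for cargo, was at 24.9, 24.0 and 23.7 CPM in shCtrl and 30.1, 34.0 and 34.0 in shMEX3A, and rose 1.35-fold (0.43, SE 0.054, adjusted p = 4.28e-09). Each of these 4 genes had arms that did not overlap, as did 72.3% of all genes tested. Because SQSTM1 outweighs the other receptors, the summed level of the 4 went from 1047 ± 9.93 to 816 ± 13.6 CPM although 3 of the 4 rose.

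Transcripts for the lysosomal membrane and late endosome differed little between arms. LAMP1, the major glycoprotein of the lysosomal membrane and the gene with the most E-box copies above, was at 679, 687 and 679.9 CPM in shCtrl and 737, 720.2 and 732 in shMEX3A. It rose 1.07-fold (log2 fold change 0.097, SE 0.029, adjusted p = 0.0028), and under the offsets the value was 0.022 with an adjusted p of 0.418. MCOLN1, the calcium channel whose promoter is printed above, was at 23.6, 24.1 and 24.0 CPM in shCtrl and 24.0, 22.8 and 25.3 in shMEX3A. Its arms overlapped and it was not called (0.0044, SE 0.054, adjusted p = 0.945), and under the offsets it was at -0.10, also not called.

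LAMP2, which also serves in autophagosome fusion, was not called (-0.040, SE 0.034, adjusted p = 0.304), and under the offsets it was called in the opposite direction at 0.10. RAB7A, the small GTPase of late endosomes, was at 317 ± 6.09 and 332 ± 4.91 CPM, a log2 fold change of 0.065 (SE 0.030) that only just passed the threshold (adjusted p = 0.0486). The call of RAB7A was lost without shCtrl replicate 2 or 3 (adjusted p = 0.143 and 0.159) and without shMEX3A replicate 1, 2 or 3 (0.0528, 0.166 and 0.0836), and under the offsets the value was 0.20.

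In the proton pump that acidifies the lysosome, 1 of 4 genes was called, where 69.7% of all genes tested were. ATP6V0D1 (chr16:67438014-67481237, minus strand), a subunit of the membrane sector, was at 79.4, 80.7 and 76.3 CPM in shCtrl and at 143, 129 and 135 in shMEX3A. It rose 1.72-fold (log2 fold change 0.79, SE 0.037, adjusted p = 3.41e-20), with no overlap between arms. ATP6V1A, the catalytic subunit, was at 80.4, 83.6 and 86.9 against 89.7, 80.8 and 83.6 CPM.

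ATP6V1H, a regulatory subunit of the cytosolic sector, was at 40.0, 39.7 and 40.6 CPM in shCtrl and 39.9, 38.4 and 38.7 in shMEX3A. ATP6AP1, an accessory protein, was at 243, 253 and 239 CPM in shCtrl and 239.7, 244 and 241 in shMEX3A. The arms of these genes and of ATP6V1A overlapped, and their log2 fold changes were -0.039 (SE 0.043), -0.018 (SE 0.031) and 0.019 (SE 0.040) for ATP6V1H, ATP6AP1 and ATP6V1A. Under the offsets ATP6V1A was called at 0.13 and ATP6AP1 at -0.16, while ATP6V1H was at 0.081 and not called.

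The 9 hydrolases and activators included the most abundant transcripts of the 46, and none passed 1.5-fold. PSAP, the precursor of the saposins that help degrade sphingolipids, was at 2257, 2390 and 2350 CPM in shCtrl and 2691, 2696 and 2716 in shMEX3A, and rose 1.16-fold (log2 fold change 0.21, SE 0.030, adjusted p = 7.5e-08). Per kilobase it was the highest of the 46 in both arms, at 809 and 938, ahead of CTSD at 303 and 305. GAA (chr17:80101556-80119879, plus strand), the acid alpha-glucosidase that digests glycogen, was at 171, 169.6 and 169 CPM in shCtrl and 249.8, 251 and 259 in shMEX3A. GAA rose 1.49-fold (0.57, SE 0.030, adjusted p = 3.11e-19), just under the size limit, and under the offsets its value was 0.37.

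Of the 5 genes for cathepsins, the lysosomal proteases, 3 fell, 1 rose and 1 was not called. Over all genes tested, 35.6% were called lower and 34% higher. CTSB was at 833, 814 and 786 CPM in shCtrl and 659, 682 and 689 in shMEX3A, and fell 1.20-fold (log2 fold change -0.26, SE 0.030, adjusted p = 9.62e-10). CTSL fell from 147 ± 3.20 to 123 ± 3.56 CPM (-0.25, SE 0.033) and CTSZ from 163 ± 7.52 to 145 ± 8.15 (-0.16, SE 0.039). CTSD, the main aspartic protease, was not called (0.0071, SE 0.031, adjusted p = 0.844), and under the offsets it was called lower at -0.095. Exons of other genes cover 54.9% of the exon bases of CTSD, 29.6% of those of CTSA, and 23.7% of those of HEXA.

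CTSA, which protects beta-galactosidase and sialidase, rose by 0.076 (SE 0.030, adjusted p = 0.0232), and under the offsets it was called lower at -0.077. The adjusted p of CTSA was 0.0775 without shCtrl replicate 2, 0.0821 without shCtrl replicate 3 and 0.138 without shMEX3A replicate 3. HEXA, a subunit of beta-hexosaminidase, rose from 140.4 ± 1.51 to 165 ± 4.88 CPM (0.23, SE 0.032). GLA, alpha-galactosidase A, rose from 48.1 ± 0.618 to 52.4 ± 1.61 CPM (0.13, SE 0.040, with 0.26 under the offsets).

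Genes with and without CACGTG in the promoter window are set side by side as a description. Of the 9 with it, 5 rose (ATP6V0D1, GAA, TBK1, LAMP1 and CTSA), 1 fell (ATG14) and 3 were not called (ATG3, MCOLN1 and CTSD), with a median log2 fold change of 0.076. Of the 30 matched promoters without it, 18 belonged to genes that rose and 9 to genes that fell, with a median of 0.12. Of all genes tested, 34% were called higher and 35.6% lower. Among the 9, under the GC and length offsets LAMP1 was not called, CTSA and CTSD were called lower and ATG3 was called higher. ULK1, ATG9A and ATG2A, the genes with the largest rises, had promoter entries without these letters in the window.

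Other genes of the same pathways were taken from 6 lists, and are named as the 2 called genes with the smallest p in each direction. The counts of each list stand beside 69.7% of all tested genes that were called, 34% higher and 35.6% lower. The share called was 64.7% in the list of pump subunits, 81.2% in that of hydrolases and 86.4% to 93.8% in the other 4. Among genes at the level of the 46 it was 81.3%. Of 16 tested genes of the autophagy core, 6 rose and 9 fell. RUBCN (Rubicon), an inhibitor of the lipid kinase complex in late endosomes, rose by 0.90 on the log2 scale (SE 0.037), from 48.1 ± 1.15 to 90.1 ± 0.0773 CPM, and the ATG4D protease by 0.91 (SE 0.065), from 10.8 ± 0.347 to 20.2 ± 0.738. NRBF2 and PIK3R4, both partners of the lipid kinase PIK3C3, fell by 0.56 (SE 0.052, with -0.33 under the offsets) and 0.52 (SE 0.056).

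Of 17 receptor and fusion genes, 9 rose and 6 fell. TOLLIP, a ubiquitin-binding adaptor, rose from 42.5 ± 0.888 to 90.6 ± 1.47 CPM (1.09, SE 0.038) and PLEKHM1, a RAB7 effector that tethers autophagosomes to lysosomes, from 31.1 ± 1.80 to 66.9 ± 1.82 (1.11, SE 0.044). STX17 and SNAP29, SNARE proteins that together fuse the autophagosome with the lysosome, both fell: STX17 from 30.8 ± 0.434 to 14.2 ± 0.288 CPM (-1.12, SE 0.055) and SNAP29 from 53.9 ± 0.527 to 28.8 ± 0.492 (-0.91, SE 0.043).

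Of 17 other pump subunits, 8 rose and 3 fell. ATP6V0C, the proteolipid ring subunit, rose from 166 ± 9.13 to 411 ± 12.7 CPM (1.30, SE 0.035), though other genes cover 72.1% of its exon bases, and ATP6V0A1 rose from 55.5 ± 1.55 to 101 ± 1.74 (0.87, SE 0.037). ATP6V0E1 and ATP6V0B fell by 0.39 (SE 0.036, with -0.17 under the offsets) and 0.36 (SE 0.040). When the 46 genes and this list were divided by sector, a division made after the values were seen, 6 of 8 tested genes of the membrane sector rose and 2 fell, where 34% and 35.6% of all genes did, and 5 rose at least 1.5-fold, where 14.8% of all did. Of 11 genes of the cytosolic sector, 3 rose, 1 fell and 7 were not called, and none passed 1.5-fold when called. The difference between sectors was not tested. ATP6V0A4 had the largest fitted change of the sector, on counts of 3, 4 and 11 in shCtrl and 41, 56 and 45 in shMEX3A, and was also chosen after its values were seen.

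**Figure D5:**
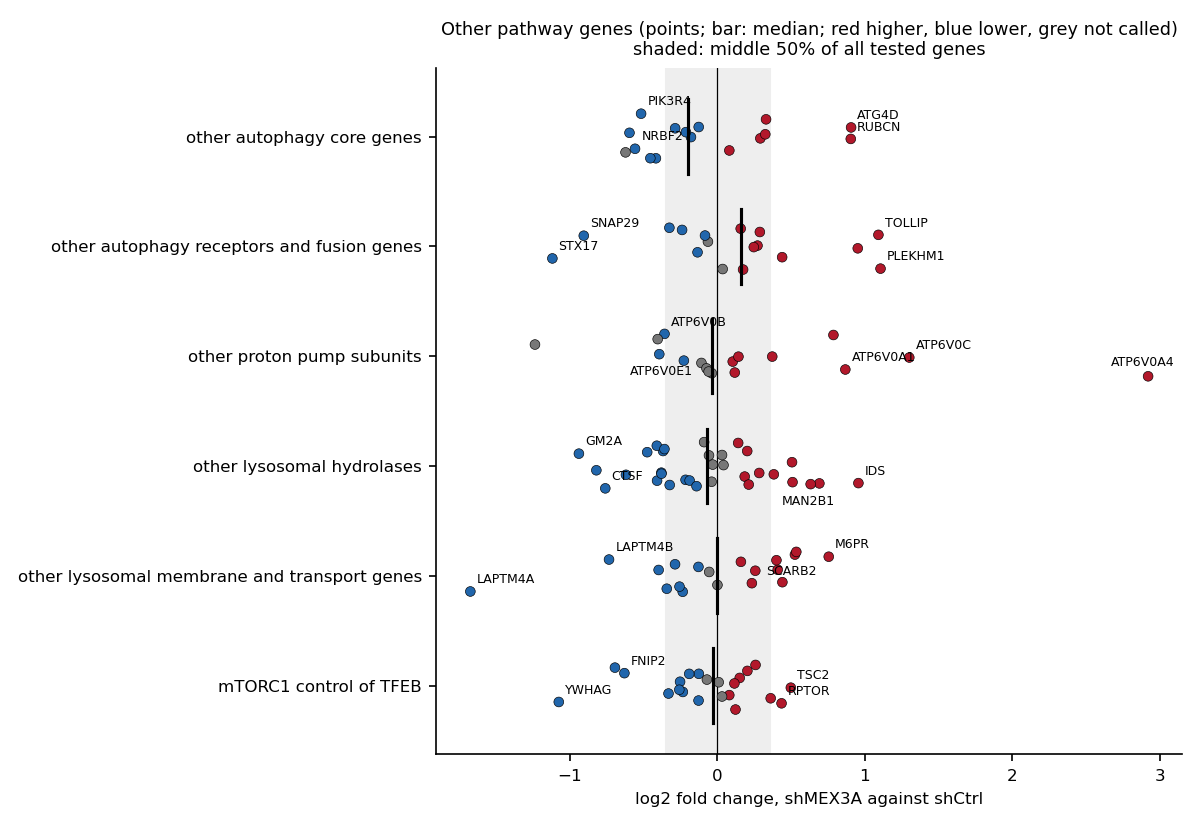
Log2 fold change (shMEX3A against shCtrl) of every tested gene of the 6 further pathway lists, red for called higher, blue for called lower and grey for not called, with a vertical bar at each list median and shading over the middle 50% of all tested genes. PLEKHM1, TOLLIP and ATP6V0C lie above 1 and STX17, YWHAG and LAPTM4A below -1, while the list medians lie between -0.20 and 0.16.

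Of 32 other hydrolases tested, 11 rose and 15 fell. IDS, which degrades glycosaminoglycans, rose from 99.6 ± 0.484 to 193 ± 3.36 CPM (0.96, SE 0.032), and MAN2B1, a lysosomal mannosidase with 35.7% of its exon bases shared, from 218 ± 4.47 to 338 ± 5.87 (0.63, SE 0.030). GM2A, the activator that presents gangliosides to beta-hexosaminidase, fell from 90.2 ± 3.43 to 47.0 ± 0.680 CPM (-0.94, SE 0.038), and the cathepsin CTSF fell by 0.76 (SE 0.039) to 57.2 ± 0.939 CPM.

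Of 19 other membrane and transport genes, 9 rose and 8 fell. M6PR, a receptor that sorts hydrolases to lysosomes, rose from 132 ± 1.29 to 223 ± 2.66 CPM (0.76, SE 0.031), with 40.0% of its exon bases shared, and SCARB2 (LIMP-2), which carries glucocerebrosidase, from 151 ± 2.49 to 218 ± 5.24 (0.53, SE 0.031). LAPTM4A fell from 152 ± 11.4 to 47.5 ± 2.47 CPM (-1.68, SE 0.053) and LAPTM4B from 381 ± 9.44 to 229 ± 7.31 (-0.73, SE 0.031). Both encode transmembrane proteins of late endosomes and lysosomes.

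Of 22 genes through which mTORC1 controls TFEB, 9 rose and 10 fell, where 34% and 35.6% of all genes tested did. Of the 22, 3 fell at least 1.5-fold, where 13.2% of all genes tested did. With each library left out in turn, 7 to 8 of the 22 were called higher and 8 to 10 lower. TSC2, a brake on mTORC1, rose by 0.50 (SE 0.034) and RPTOR, the mTORC1 subunit that binds substrates, by 0.44 (SE 0.036), with 0.25 and 0.19 under the offsets. YWHAG, a 14-3-3 protein of the family that retains TFEB in the cytoplasm, fell from 324 ± 10.4 to 154 ± 2.01 CPM (-1.08, SE 0.031). FNIP2, the partner of folliculin at the lysosome, fell from 45.3 ± 1.39 to 29.3 ± 0.290 CPM (-0.63, SE 0.045).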

How the data were processed

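RNA was sequenced from 6 TOV21G libraries, 3 per arm. The deposited table holds raw counts, whole numbers with 1 column per library. GRCh38 is the build, and edgeR 4.0.16, HTSeq 2.0.4, STAR and fastp 0.20.0 are the tools, that the submitters' processing notes list, with no role or order. The STAR version is not given in the sources used here, nor is the annotation release or the strand setting. Thus reads of overlapping genes cannot be told apart.

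The tests were run with edgeR 4.0.16 under R 4.3.3 (filterByExpr, TMM scaling, robust quasi-likelihood fit, 4 residual degrees of freedom, common biological coefficient of variation 3.41%), with Benjamini-Hochberg adjustment over 15679 genes and a threshold of 0.05. The scripts were tested on simulated data. CPM are scaled by TMM, which makes every change relative to the other genes, and levels per kilobase use the union of exons in GENCODE 29. Gene positions and exon overlaps come from GENCODE 29 and promoters from RefSeq, matched by symbol. Standard errors come from the F statistic.

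The members and lists were chosen with earlier results of these data known. The ratios between related genes were not among the planned results. Every member is named. Values in each library are given for those past 1.5-fold, for role families of at most 4 that hold one, and for the called member with the smallest p in each direction in a role. From each other list the 2 called genes with the smallest p per direction are named.

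Alternatives were no filter, upper-quartile factors, DESeq2 size factors, a filter of 1 CPM in 3 libraries, mitochondrially encoded genes left out, DESeq2 1.42.0, limma 3.58.1 voom, a replicate block, GC and length offsets (14480 genes with values, natural splines with 5 degrees of freedom), and each library left out in turn. Within an arm, pairs of libraries differed beyond sampling noise (chi-square divided by its degrees of freedom 2.69 to 6.15), so all were kept as separate samples. MAP1LC3A, ATP6V0D2 and GALC did not pass the filter.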

Additional observations from a re-analysis of the deposited data

How the results depend on the processing

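Over all alternatives, 22 to 28 of the 46 genes were called higher and 11 to 13 lower, with 5 to 6 and 2 to 3 past 1.5-fold, and MEX3A lay between -1.68 and -1.86 on the log2 scale. A value that was called took the opposite sign of its counterpart under the GC and length offsets alone: LAMP2 0.10 (adjusted p = 0.00363), CTSA -0.077 (0.00828) and CTSD -0.095 (0.000741). They also moved the median of the 46 from 0.10 to 0.13, and the cause was not tested. Of the alternative values of single named genes, 1008 kept sign and side of the threshold, 18 lost the call and 10 gained it, and 11 changed sign with no call either way (MCOLN1, CTSD, ATP6V1A, ATP6AP1 and ATP6V1H).

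Libraries with the same replicate number did not deviate together, with correlations from -0.077 to 0.077, and the best match of a library had its own number for 2 of 6, so the numbers are not taken to pair the libraries. With the replicate block, 24 of the 46 genes were called higher and 11 lower, the median was 0.10, and RAB7A was at 0.065 with an adjusted p of 0.0864. RAB7A also lost its call with upper-quartile factors (0.0529) and with no filter (0.166), and CTSA with no filter (0.087).

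With 3 libraries per arm and 4 residual degrees of freedom, changes of a few percent decide calls such as that of RAB7A. Leaving out a library leaves 2 in that arm. Low genes such as ATP6V0A4 rest on few counts.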
